A study of Drosophila melanogaster with 12 samples.

Results

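The genes described here are 94 Drosophila genes that the deposited table lists by a CG number only, the provisional name of a predicted gene, and that were lower in fat bodies labelled EcR RNAi than in control fat bodies on both diets. A gene was taken when, on each diet, the mean of the 3 control libraries was at least 2 times the mean of the 3 EcR RNAi libraries, every control library lay above every EcR RNAi library, and the control mean was at least 20. The table holds 10047 genes, of which 4823 carry a CG number, so the 94 members were 1.95% of the CG-numbered rows. By the same thresholds 66 of the 5224 rows with another symbol (1.26%) were lower, and 139 CG-numbered rows met the mirrored thresholds, higher with RNAi. The genotype difference therefore chose the members, and it is given below as a description with no test.

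The libraries were made from total RNA of fat bodies of female larvae of the third instar at the wandering stage, after removal of ribosomal RNA, with 3 libraries in each of 4 groups. All larvae carried UAS-Dcr2 on the X chromosome and the r4-GAL4 driver, which acts in the fat body. Controls, titled vw1118, came from the VDRC 60000 stock and EcR RNAi larvae (EcRi below) from the VDRC 37058 UAS-EcR RNAi stock, and each genotype was reared on 0.15 M sucrose, the control diet, or 0.5 M sucrose, the high-sugar diet. A single RNAi line was used, the labels do not say how many larvae made up a library or whether replicates were separate cultures, and p-values therefore measure the spread between these libraries, which may be technical. Values are the authors' normalised signal, whose scaling is not stated. In 3 libraries 99.8% to 100% of values between 1 and 40 lie within 0.1 steps of whole multiples of 1 step size, in the shorter and the longer genes alike, so the signal is taken here as not divided by gene length. In the other 9 libraries at most 73.0% of such values do, and the number of reads behind each value is unknown.

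The insect steroid ecdysone acts through a heterodimer of EcR and usp, which binds DNA and switches on early regulators such as Eip75B, and these in turn control later tissue-specific genes. The larval fat body stores lipid, glycogen and serum proteins, detoxifies, and feeds the animal through metamorphosis, and pulses of ecdysone before pupariation change what it makes and takes up. Many of its enzymes, carriers and proteases still carry provisional names.

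EcR itself was not detectably lower. Its normalised signal was 1380.0 ± 173 in controls and 1132 ± 106 in EcRi on 0.15 M sucrose (SD, n = 3 libraries each; limma log2 difference -0.28, adjusted p = 0.386). On 0.5 M sucrose it was 1454 ± 64.2 and 1414 ± 328 (log2 difference -0.06, adjusted p = 0.847). Because the transcript gives no check of the knock-down, EcRi means below the libraries labelled that way. Of 30 ecdysone-response genes listed, 29 were measured, and on 0.15 M sucrose 10 were called lower and 1 higher, where 5.01% and 6.19% of all genes were called. On 0.5 M sucrose 9 were called lower and 5 higher, where 8.11% and 10.9% of all genes were called. The median log2 difference of the list was -0.40 and -0.26, against 0.04 and -0.0023 over all genes. E23, an ABC transporter that limits ecdysone action, fell from 972 ± 250.4 to 231 ± 37.7 on 0.15 M (log2 difference -2.05, adjusted p = 1.03e-06), and Eip75B, an early nuclear receptor, fell by 1.48 (adjusted p = 1.47e-05). Without EcRi 0.15 M replicate 2 the list's calls on 0.15 M dropped from 11 to 7.

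Library sums of the normalised signal ran from 8864826 to 15045575. The highest was control 0.5 M replicate 1, which stood apart: the median member there lay 0.37 above the mean of its group on the log2 scale, while the median of all genes lay 0.01 above it. Of 12 fat body markers 10 were measured, and their summed signal was between 1918723 and 4202011 in every library, the highest again in that one. With EcRi 1 of them was called lower and 1 higher on 0.15 M, and 3 lower and 1 higher on 0.5 M. Of 11 salivary gland markers 9 were measured, and 7 were called lower with EcRi on 0.15 M and 4 on 0.5 M, none of them higher. Their sum was 29258 to 33194 in controls and 2604.5 to 7930.4 in EcRi on 0.15 M, and 9244 to 43953 and 3667 to 14142 on 0.5 M. Of the muscle (14), hemocyte (9) and nervous system (8) markers measured, 1 hemocyte gene was called higher with EcRi on each diet and no other was called. The hemocyte sum on 0.5 M was higher in EcRi without overlap, with 5078 to 7870 in controls and 8356 to 10207 in EcRi. So was the nervous system sum on 0.15 M, with 3682 to 4364 and 5213 to 6003. Of 9 ring gland markers 6 were measured, with 1 called higher on each diet and 4 lower on 0.5 M. Their sum was 933 to 1283 in controls and 1808 to 2203 in EcRi on 0.15 M, and 1227 to 1677 and 7080.1 to 8521 on 0.5 M. Of 14 cuticle and trachea markers 10 were measured and 1 was called lower on 0.15 M, and their sum was lower in EcRi without overlap on both diets: 13601 to 18149 in controls and 6959 to 11473 in EcRi on 0.15 M, and 19118 to 19914 and 12044 to 17719 on 0.5 M. On 0.5 M 2 of 9 midgut and 3 of 6 Malpighian tubule markers measured were also called lower, with sums of 8528 to 11163 in controls and 5053 to 10249 in EcRi for the former and 2828 to 3285 and 3068 to 4287 for the latter. None of the 3 gonad and germline markers measured was called, but their low sum on 0.15 M was 22.5 to 32.1 in controls and 33.7 to 42.15 in EcRi. No value in the table is 0. The part of these markers' tissues in the members' differences was not tested. In bulk tissue fewer cells of a type and less RNA per cell cannot be told apart.

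The control to EcRi ratio of the members had a median of 3.48 on 0.15 M sucrose (range 2.03 to 24.6) and 3.96 on 0.5 M (range 2.09 to 26.6). It was larger on 0.5 M in 60 members and larger on 0.15 M in 34. On the log2 scale the diet change was lower in EcRi than in controls in 56 members and in 5345 of all 10047 genes. The median difference of the 2 changes was -0.18 over the members and -0.05 over all genes. Without control 0.5 M replicate 1 these medians were 0.01 and -0.03. A ratio of at least 4 was met by 37 members on 0.15 M and 47 on 0.5 M, and a ratio of at least 10 by 6 and 12. In 89 members all 6 control libraries lay above all 6 EcRi libraries, a count that the rule largely fixes (3.46% of all genes did so). The exceptions were CG34276, CG17739, CG9577, CG17386 and CG18135. Just inside the threshold lay CG31522 with ratios of 2.03 and 2.46, CG33282 with 2.04 and 3.16, and CG14253 with 2.06 and 4.89. Just outside it lay CG9850 with 2.0 and 2.42, CG10157 with 2.29 and 1.98, and CG9702 with 2.06 and 1.93.

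**Figure D1:**
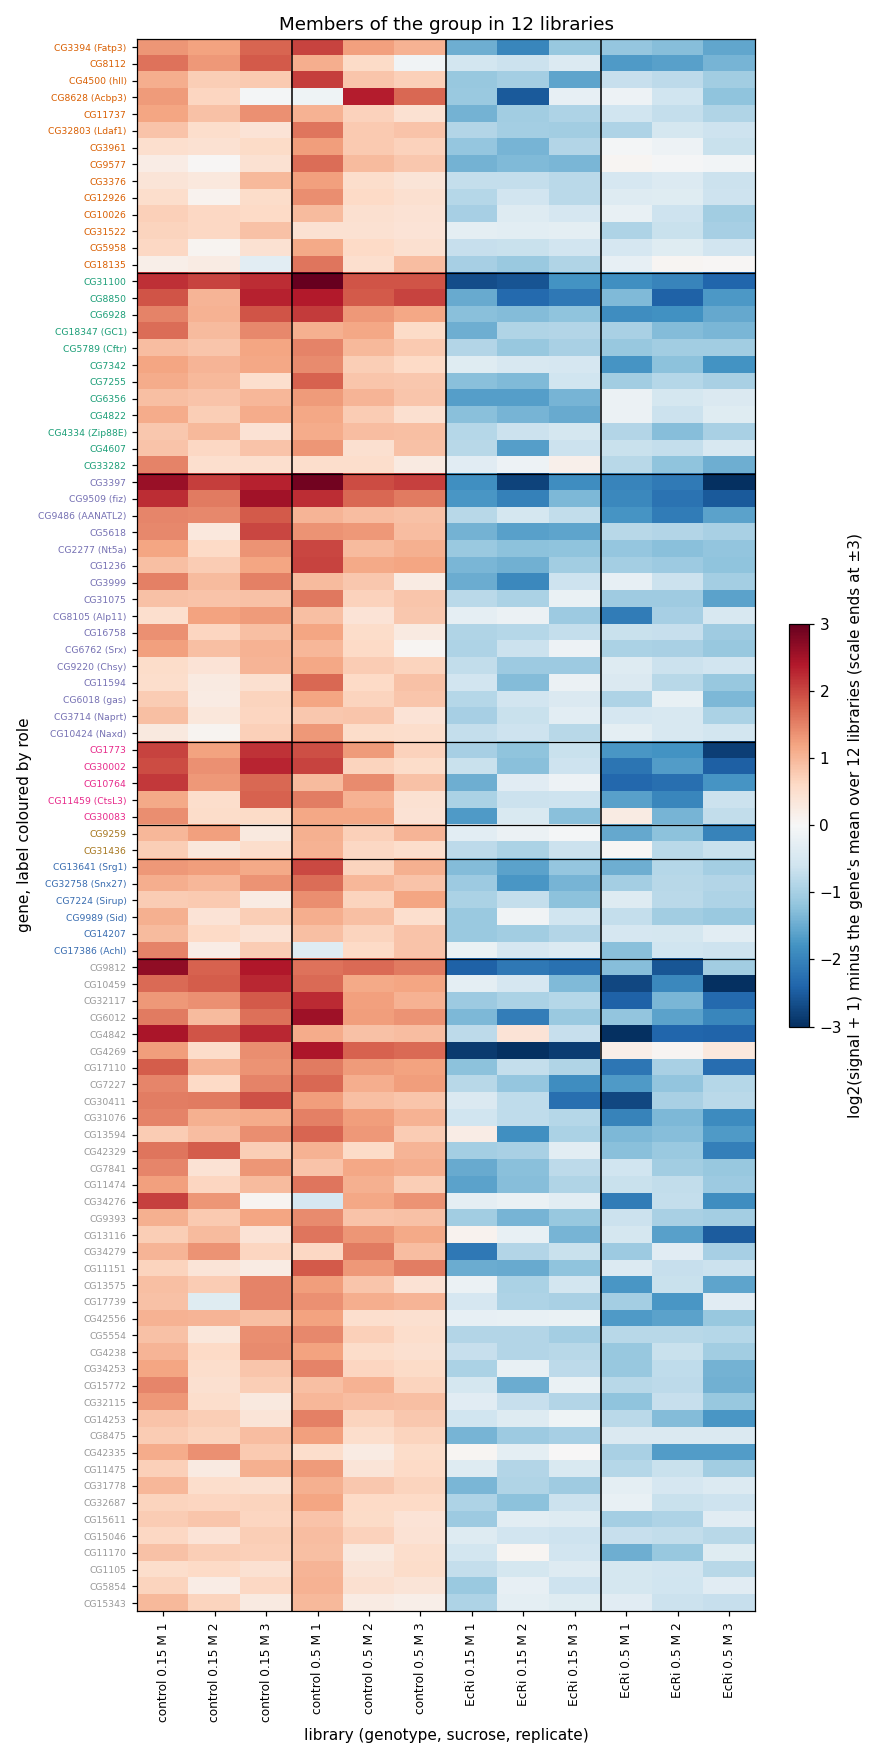
Each row is 1 of the 94 members and each column 1 of the 12 libraries, and the colour is log2(signal + 1) minus that gene's mean over the libraries, with the scale ending at ±3. The 6 control columns are red and the 6 EcRi columns blue in nearly every row, as the rule demands, and CG4269 is seen to be near its own mean in EcRi on 0.5 M.

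A role could be given to 55 of the 94 members, 36 from names in the reference gene table and 19 from general knowledge of the protein family, and 39 were left without one. The named roles were metabolic enzymes (16), lipid handling (14), transporters (12), proteases (5), ecdysteroid kinase-like proteins (2) and 6 others. By now 22 of the members have a name in place of the CG number. The control mean over both diets had a median of 618 units of signal, exceeded 1000 in 36 members and was under 100 in 17. All 5 large chromosome arms held members: 17 of 829 CG-numbered rows on 2L, 22 of 908 on 2R, 15 of 920 on 3L, 26 of 1195 on 3R and 14 of 796 on X.

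**Figure D2:**
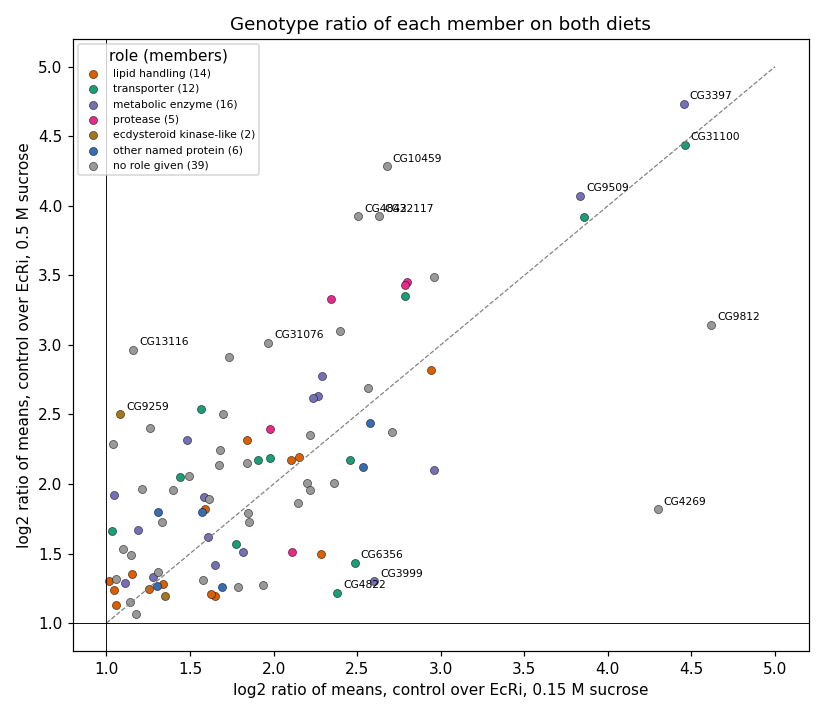
Each point is 1 member, with its log2 control to EcRi ratio of group means on 0.15 M sucrose on the x axis and on 0.5 M on the y axis, coloured by role, and the dashed line marks equal ratios. Both axes start where the rule does, at a ratio of 2, and 60 of the 94 points lie above the dashed line. The median difference between the members' diet changes in EcRi and in controls was -0.18, and 0.01 without control 0.5 M replicate 1.

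CG31075, an aldehyde dehydrogenase family member, was by far the most abundant of these genes. Its signal was 55057, 53866 and 55066 in the 0.15 M controls, 89334, 47956 and 53335 in the 0.5 M controls, 17105, 15444 and 26146 in EcRi on 0.15 M, and 14244, 14238 and 9785 in EcRi on 0.5 M. The control libraries were all above the EcRi libraries, by a ratio of means of 2.79 and 4.98. Per kilobase of the longest annotated transcript its signal reached 33505 units in controls, followed by CG13641, now Srg1, at 9919, the CRAL-TRIO lipid-binding protein CG5958 at 6127, the glyoxylate and hydroxypyruvate reductase CG1236 at 5375, CG5554 at 3817 and CG11151 at 3513. All members together made up 1.63% to 2.0% of the summed signal in the 6 controls and 0.478% to 0.611% in the 6 EcRi libraries. CG31075 was between 30.5% and 35.0% of the members' sum in controls, up to 42.7% in EcRi on 0.15 M and as little as 21.5% in EcRi on 0.5 M.

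The other 9 of the 10 most abundant members had ratios between 2.07 and 6.13. CG1236 had 4985, 4535 and 6050.3 units in the 0.15 M controls against 1026, 989.5 and 1286 in EcRi, and 10906, 5879.7 and 6018 against 1309, 1255 and 1154 on 0.5 M. The ratio was 4.72 and 6.13, and the lowest control library (4535) lay well above the highest EcRi library (1309). CG5958 showed 7295, 5074 and 6583 against 2959, 2993 and 3219 on 0.15 M, ratios of 2.07 and 2.36, close to the threshold. CG7255, an amino acid permease, had ratios of 3.75 and 4.51, the purine nucleoside phosphorylase CG16758 had 3.52 and 2.85, and CG3376, listed as an acid sphingomyelinase, had 2.53 and 2.43.

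The 10 members with the largest ratios came from several role groups. CG3397, an aldo-keto reductase family member, had 4294, 3039 and 3563 units in controls and 199.8, 103 and 195 in EcRi on 0.15 M, and 5316, 2770.0 and 2990.5 against 179.7, 165 and 72.6 on 0.5 M. CG31100, a sugar transporter-like protein of the major facilitator superfamily, had 1088, 964 and 1105 against 36.9, 38.4 and 68.3, and 1925, 883 and 880.3 against 65.6, 59.6 and 45. Both were about as far apart on either diet, with ratios of 21.9 and 26.6 for CG3397 and 22 and 21.7 for CG31100. CG9509, now fiz, an oxidoreductase of the glucose-methanol-choline family, was lower by ratios of 14.3 and 16.8, and CG8850, listed as DmNAT4, by 14.5 and 15.1. CG9812 had the widest gap on 0.15 M: 1391, 754 and 1174 in controls against 40.1, 48.9 and 46.2, a ratio of 24.6 that was 8.83 on 0.5 M. CG10459, CG32117 and CG4842 differed the other way, with ratios of 6.39, 6.18 and 5.67 on 0.15 M and 19.5, 15.2 and 15.2 on 0.5 M, and their EcRi values on 0.5 M were all under 7 units. CG6012 (7.78 and 11.2) and the serine protease CG1773 (6.96 and 11) completed the 10.

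The rule compared genotypes within each diet and did not compare diets. The members' response to sugar was tested in the fit across all 10047 genes (limma on log2(signal + 1), 4 group means, Benjamini-Hochberg over all genes). The rule still bounds that response. A gene that rose far in EcRi alone, or fell far in controls alone, could miss a ratio of 2 and drop out. How much this shaped the counts was not tested. In controls 3 members rose on 0.5 M sucrose and 1 fell, 4.26% of the members where 1.72% of all genes were called (1.55% higher, 0.169% lower). These shares are not matched for signal level: the median control mean on 0.15 M was 658 over the members and 107 over all genes. Of the 94, 15 had an unadjusted p under 0.05, as did 1443 of all 10047 genes. In 16 members the 3 libraries of one diet lay wholly above the other, as they did in 18.0% of all genes. The median log2 difference was 0.06 over the members and -0.01 over all genes, and its sign depended on the library: it was -0.10 without control 0.5 M replicate 1. The count of 4 fell to 1 without control 0.15 M replicate 1 and to 2 without EcRi 0.15 M replicate 1, control 0.15 M replicate 2, control 0.15 M replicate 3 or control 0.5 M replicate 3. Without control 0.15 M replicate 1 that was 1.06% of the members and 1.33% of all genes. In the fits with 2 calls it was 2.13% of the members and 0.737% to 1.22% of all genes. Upper quartile scaling gave 2 higher and 2 lower (1.43% of all genes called), and quantile normalisation 3 and 3 (1.82%).

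CG11151, to which no role is given here, rose with the smallest p. Its signal was 2763, 2257 and 2035 in controls on 0.15 M and 6181, 4244 and 4988 on 0.5 M, and 619, 606 and 744 in EcRi on 0.15 M and 1295, 1064 and 1113 on 0.5 M. The 2 diets did not overlap in either genotype. The log2 increase was 1.12 ± 0.18 in controls (SE, limma adjusted p = 0.00283) and 0.82 ± 0.18 in EcRi (adjusted p = 0.0042). The call in controls was kept with each library left out in turn, but the adjusted p was 0.069 when only the 6 control libraries were fitted. One of its exons overlaps l(1)dd4 on the opposite strand, and whether reads were counted by strand is not given, so part of its signal may belong to that gene.

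3 members of lipid metabolism made up the other calls in controls. CG9577, listed as the enoyl-CoA hydratase Ech1 of fatty acid breakdown, had 1485, 1309 and 1755 units on 0.15 M and 4039.7, 2453 and 2231 on 0.5 M, and in EcRi 476, 505 and 494 against 1335, 1241 and 1201. It rose by 0.90 ± 0.19 in controls (limma adjusted p = 0.0259) and by 1.35 ± 0.19 in EcRi (adjusted p = 0.000231), and EcRi on the high-sugar diet overlapped with the low-sugar controls. The control call was lost without control 0.15 M replicate 1 (adjusted p = 0.0693) or replicate 2 (0.126). CG18135, a glycerophosphodiester phosphodiesterase family member, had 4196, 4450.1 and 3013 units in controls on 0.15 M and 11470.0, 5335 and 7067 on 0.5 M, and in EcRi 1874, 1735 and 1989 against 3152, 3919 and 3832. Its rise of 0.98 ± 0.24 in controls (adjusted p = 0.0486) was called in only 1 of the 12 fits that leave out a library, with a range of adjusted p from 0.00578 to 0.229. That in EcRi, 0.96 ± 0.24 (adjusted p = 0.00905), was kept in all 12.

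CG8112, listed as ACAT, a sterol acyltransferase that makes steryl esters, was the only member called lower on sugar in controls. Its signal was 359, 290.0 and 418 on 0.15 M and 249.7, 174 and 108 on 0.5 M, and in EcRi 79.0, 74.1 and 87.3 against 35.4, 36.9 and 44.0. The fall was 1.07 ± 0.24 on the log2 scale in controls (limma adjusted p = 0.0324) and 1.03 ± 0.24 in EcRi (adjusted p = 0.00623), so that the ratio of genotypes was 4.44 and 4.57. The control call was lost without control 0.15 M replicate 1 (adjusted p = 0.0877), control 0.15 M replicate 3 (0.148), control 0.5 M replicate 3 (0.128) or EcRi 0.15 M replicate 1 (0.0566). Exons of CG8112, CG9577 and CG18135 each overlap another annotated gene. For all 4 genes the test of whether the diet change differed between genotypes was not passed, with adjusted p between 0.358 and 0.977.

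**Figure D3:**
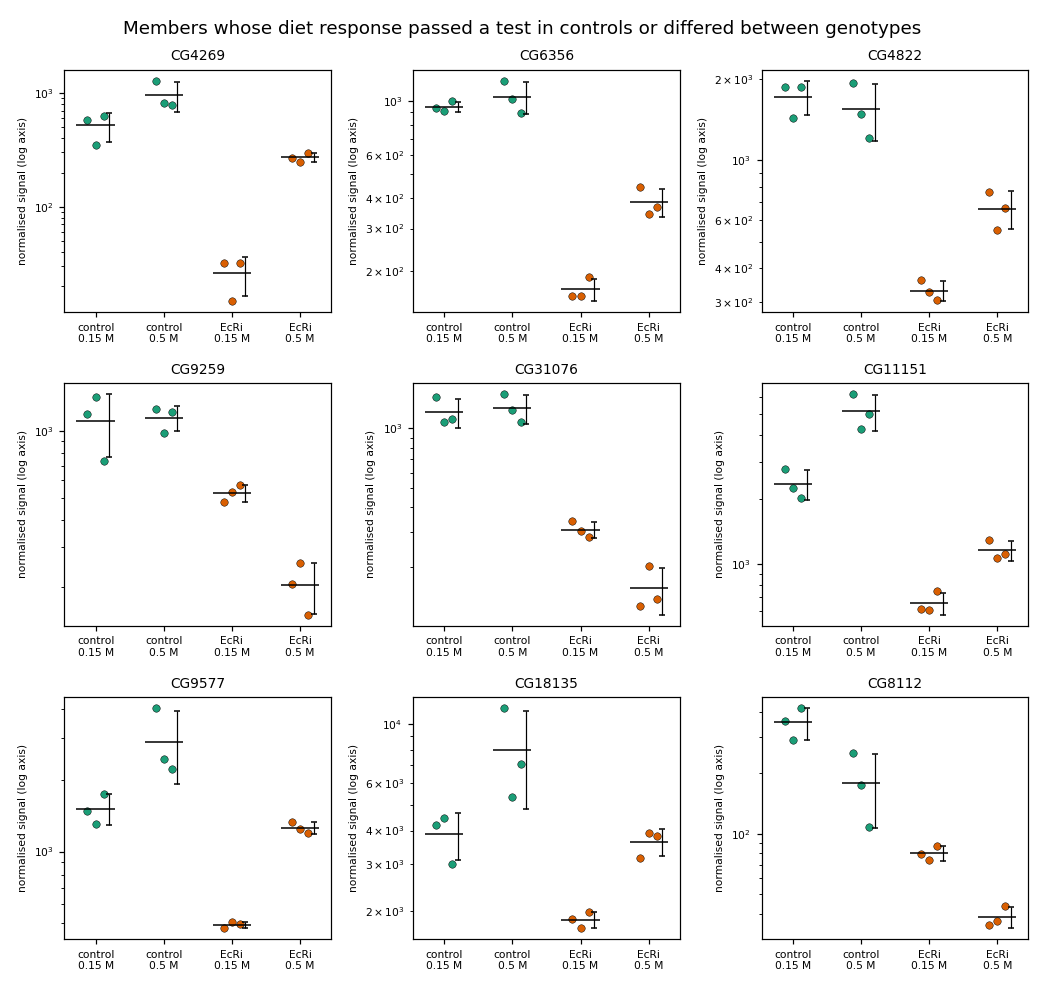
Normalised signal on a log axis for the 9 members whose diet response passed a test in controls or differed between genotypes, 1 panel a gene, with points for the 3 libraries of each group, a line for the mean and a bar for 1 SD to each side. In CG6356 and CG4822 the EcRi groups stand apart, higher on 0.5 M, while the control groups overlap, and in CG9259 and CG31076 the EcRi groups stand apart, lower on 0.5 M, while the control groups overlap.

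In EcRi 26 members were called for diet, 10 higher and 16 lower on 0.5 M, or 27.7% where 24.4% of all genes were called (14.0% higher, 10.4% lower). The rule could drop genes that rose in EcRi alone, so the split between higher and lower is not free of it. In 42 members the libraries of the 2 diets did not overlap, where 44.7% of all genes did not. The median log2 difference was -0.07 over the members and -0.02 over all genes, and it was 0.04 without EcRi 0.5 M replicate 3. Upper quartile scaling, which shifts the median of all genes to -0.23, gave 9 higher and 24 lower. The 4 members called in controls were called in the same direction in EcRi, and 68 members were called in neither genotype. The 2 diet contrasts share no library, and the interaction below tests their difference.

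Among the members that rose in EcRi were CG4269, the Slc22-like transporter CG6356, the ABC transporter CG4822 and CG9577. CG3961, a long-chain acyl-CoA synthetase that activates fatty acids, rose by 0.86 ± 0.20 (limma adjusted p = 0.00583). CG8475, CG31778 and CG14207, the latter listed as the small heat shock protein HspB8, rose by 0.73, 0.71 and 0.57. The call for CG14207 was lost without EcRi 0.15 M replicate 1, EcRi 0.15 M replicate 2 or EcRi 0.5 M replicate 3 (adjusted p up to 0.0612), and that for CG31778 without EcRi 0.15 M replicate 1 (0.053).

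The members that fell in EcRi were 16, the largest fall being that of CG4842. CG4842 had 21.4, 50 and 23.1 units in EcRi on 0.15 M and 2.03, 6.46 and 6.38 on 0.5 M, a fall by 2.46 ± 0.36 (limma adjusted p = 0.000302). In controls it went from 209, 141 and 186 to 83.1, 70.3 and 72.4, with no overlap, but its log2 difference of -1.22 was not called (adjusted p = 0.114). CG10459 fell by 1.86 ± 0.37 to between 1.45 and 4.27 units. CG9486, now AANATL2, an arylalkylamine N-acetyltransferase-like enzyme, fell by 1.13 ± 0.16 (adjusted p = 0.00024), and CG7342, an organic cation transporter-like protein, by 1.15 ± 0.20 (adjusted p = 0.000847). For CG7342 the EcRi signal was 558, 512 and 506 on 0.15 M and 210.1, 304 and 205 on 0.5 M, with no overlap, while in controls 1617, 1452 and 1602 lay among 1917, 1186 and 1086. CG42335 fell by 1.37, CG42556 by 1.26, the fatty acid elongase family member CG31522 by 0.57, the sugar transporter-like CG33282 by 1.06 and CG14253 by 0.91. CG33282 lost the call without EcRi 0.15 M replicate 3 (adjusted p = 0.064) or EcRi 0.5 M replicate 3 (0.0611). CG14253 lost it without EcRi 0.15 M replicate 2 (0.051), EcRi 0.15 M replicate 3 (0.0592) or EcRi 0.5 M replicate 3 (0.0661), and CG17110 (-0.86, adjusted p = 0.0493) was called in 2 of the 12 fits that leave out a library.

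By role the counts stand beside 24.4% of all genes called for diet in EcRi and 1.72% in controls, and with so few genes a role they were not tested. Of the 5 proteases 3 were called in EcRi (60%), all lower, and none in controls. Of the 14 lipid-handling members 5 were called in EcRi (35.7%), 3 higher and 2 lower, and 3 in controls (21.4%). Of the 12 transporters 4 were called in EcRi (33.3%), CG6356 and CG4822 higher and CG7342 and CG33282 lower, and none in controls. The 16 metabolic enzymes held 1 call (6.25%), that of CG9486 in EcRi, and their median diet difference was 0.02 in controls and -0.06 in EcRi.

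**Figure D4:**
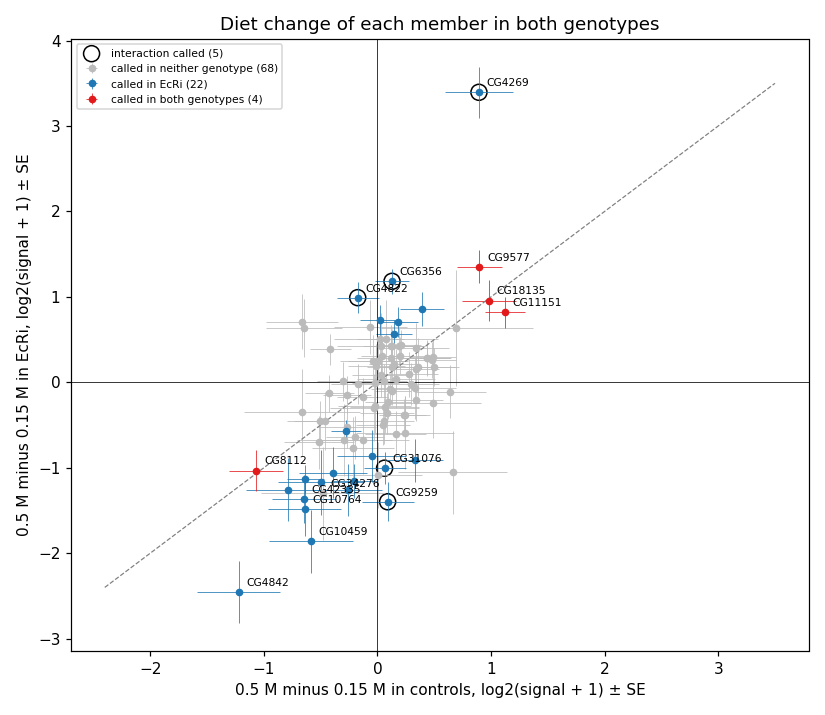
Each point is 1 member, with its log2(signal + 1) difference between 0.5 M and 0.15 M sucrose in controls on the x axis and in EcRi on the y axis, with bars of 1 SE, and the dashed line marks equal changes. The 68 grey members were called in neither genotype, though some lie far from 0, such as CG34276 at -0.48 in controls and -1.30 in EcRi. The 5 circled members, led by CG4269 at 0.89 and 3.39, lie away from the line. So do some that are not circled, such as CG13116, whose changes differed by -1.72.

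The diet change differed between genotypes in 5 members, 3 with a higher and 2 with a lower change in EcRi, or 5.32% where 3.92% of all genes were called (2.59% higher, 1.33% lower). The rule asks both ratios to pass 2 and so bounds how far such a difference can go, but does not set it. Of the 94, 17 had an unadjusted p under 0.05, as did 2162 of all 10047 genes. The count was 2 without EcRi 0.15 M replicate 2, 3 without EcRi 0.5 M replicate 1, control 0.15 M replicate 3 or control 0.5 M replicate 3, and 8 when control 0.5 M replicate 1, the library that stands apart, was left out. The share of all genes called moved too, from 1.40% without EcRi 0.5 M replicate 1 to 5.30% without control 0.5 M replicate 1. Upper quartile scaling gave 3 higher and 4 lower, and quantile normalisation 3 and 3.

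CG4269, with no role given, changed most. Its signal was 32.1, 14.9 and 32.1 in EcRi on 0.15 M and 271, 249 and 296 on 0.5 M, while controls had 576, 352 and 626 and then 1282, 816 and 782. Diet groups did not overlap in either genotype, yet the rise in controls of 0.89 ± 0.30 was not called (limma adjusted p = 0.20) and that in EcRi was 3.39 ± 0.30 (adjusted p = 1.67e-05). The difference of the 2 changes was 2.50 ± 0.42 (adjusted p = 0.0093), and the ratio of control to EcRi was 19.7 on 0.15 M and 3.53 on 0.5 M. CG6356 had 159, 159 and 189.8 units in EcRi on 0.15 M and 443, 346 and 369 on 0.5 M, against 934, 908 and 997 and then 1212, 1018 and 895 in controls. Its change was larger in EcRi by 1.05 ± 0.21 (adjusted p = 0.0122), and these are the 2 members whose interaction call was kept under every alternative run.

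CG4822, an ABC transporter of the G subfamily, had 360.1, 327 and 304 units in EcRi on 0.15 M and 764, 552 and 669 on 0.5 M. In controls 1867, 1431 and 1856 overlapped with 1932, 1478 and 1212. The difference of the changes was 1.16 ± 0.26 (limma adjusted p = 0.0222), lost without EcRi 0.15 M replicate 2 (adjusted p = 0.0647), EcRi 0.5 M replicate 1 (0.0771), control 0.15 M replicate 3 (0.0506) or control 0.5 M replicate 3 (0.0618). So for these 3 genes the genotype gap was narrower on the high-sugar diet, with ratios of 3.53, 2.70 and 2.33.

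CG9259 and CG31076 went the other way. CG9259, of the ecdysteroid kinase-like family, had 478, 530.5 and 571 units in EcRi on 0.15 M and 206, 254 and 149.7 on 0.5 M. Its controls had 1195, 1418 and 732 and then 1254, 976 and 1222, which overlap. The change was lower in EcRi by -1.49 ± 0.32 (limma adjusted p = 0.021), lost without EcRi 0.15 M replicate 2 (adjusted p = 0.0641), EcRi 0.5 M replicate 1 (0.0535) or control 0.5 M replicate 3 (0.0575). CG31076 had 340.0, 305 and 283 units in EcRi on 0.15 M and 127, 203 and 139 on 0.5 M, with controls at 1441, 1079 and 1113 and then 1488, 1234 and 1074. Its difference of -1.07 ± 0.26 (adjusted p = 0.033) was called in 6 of the 12 fits that leave out a library, with adjusted p from 0.0126 to 0.106. It was lost without EcRi 0.15 M replicate 1 (0.0794) or 2 (0.0858), EcRi 0.5 M replicate 1 (0.106) or 3 (0.074), and control 0.15 M replicate 2 (0.0906) or 3 (0.0706).

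The 139 CG-numbered genes chosen by the mirrored rule had 27 diet calls in controls (19.4%) and 47 in EcRi (33.8%), with median log2 changes of 0.54 and 0.51. Of the 66 genes with other symbols that met the members' own thresholds, 1 was called in controls (1.52%) and 15 in EcRi (22.7%), with medians of -0.13 and -0.10. These shares were not tested against those of the members.

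Gene families could be followed where the reference gene table lists family synonyms. Serine proteases, which in insects include digestive enzymes and the cascades of clotting and immunity, carry an SP or SPH number there. Of 270 such genes 161 were measured and 4 are members: CG30002, CG1773, CG30083 and CG10764. CG1773 had 991, 562 and 1092 units in controls on 0.15 M and 121, 105 and 154 in EcRi, and 930.0, 589 and 394 against 71.7, 69.2 and 33.7 on 0.5 M. The ratios were 6.90 and 10.8 for CG30002, 6.96 and 11 for CG1773, 5.07 and 10 for CG10764 and 4.32 and 2.85 for CG30083, which at 18.3 to 36.9 units in controls was close to the minimum.

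The rest of the family lay on both sides of the controls. Over all 161 measured serine proteases, 29 were called higher and 5 lower with EcRi on 0.15 M, with a median log2 difference of 0.17. Of all genes 6.19% were called higher and 5.01% lower there, so on this diet the calls leaned higher. The 4 members are lower by the rule that chose them. On 0.5 M 20 of the proteases were called higher and 22 lower, with a median of -0.22, where 10.9% and 8.11% of all genes were called. The lower counts include the members. On the high-sugar diet CG10764 fell in EcRi by 1.48 ± 0.32 (limma adjusted p = 0.00444), CG30002 by 1.26 ± 0.37 (adjusted p = 0.0224) and CG1773 by 1.17 ± 0.38 (adjusted p = 0.0472). CG30083 gave 0.51 ± 0.46 (adjusted p = 0.438). The call for CG1773 was kept in 4 of the 12 fits that leave out a library (adjusted p 0.0297 to 0.121) and that for CG30002 in 8 (0.00394 to 0.0838), and the values without each library are given with the other alternatives.

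The ecdysteroid kinase-like family is named for an enzyme of the silkworm that phosphorylates ecdysteroids, and the function of most fly members is not known. The reference gene table gives a Dro number to 51 genes of the family, 40 of them were measured, and CG9259 and CG31436 are members. CG31436 had 229, 172 and 196 units in controls on 0.15 M against 77.8, 70.4 and 86.3 in EcRi, and 282, 211 and 197 against 139, 77.1 and 85.0 on 0.5 M. Neither of its diet changes nor their difference was called (limma adjusted p of 0.706, 0.299 and 0.871). Over the 40 genes 4 were called higher and 3 lower with EcRi on 0.15 M, where 6.19% and 5.01% of all genes were called. On 0.5 M 1 was called higher and 5 lower, where 10.9% and 8.11% of all genes were called.

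The interaction was called lower in 4 of the 40, where 1.33% of all genes were called lower. These were CG9259 and the non-members CG10514, CG11892 and CG10513, and the non-members are named here after their values were seen. Of the non-members, CG10514 had 773 ± 29.7 units in controls and 605 ± 60.3 in EcRi on 0.15 M, and 723 ± 44.8 and 185 ± 60.4 on 0.5 M (SD, n = 3). CG11892 had 1170.5 ± 155 and 946 ± 139.8, and then 1119 ± 119 and 233 ± 84.8. CG10513 had 719 ± 136 and 610.3 ± 127, and then 1076 ± 83.0 and 264 ± 60.8. On 0.15 M their log2 differences between genotypes were -0.24 to -0.36 (adjusted p from 0.268 to 0.54), and on 0.5 M they fell by 2.0 to 2.31. The interaction was -1.65 ± 0.25, -2.0 ± 0.29 and -1.80 ± 0.27 (limma adjusted p = 0.00297, 0.00204 and 0.00254), and all 3 calls were kept with each library left out and in the 8 other settings. In its genotype difference CG16898 went the other way, rising with EcRi from 24.3 ± 5.32 to 127 ± 27.6 on 0.15 M and from 37.1 ± 10.8 to 457 ± 108 on 0.5 M. Its interaction was not called, and none of the 40 genes was called higher for it.

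Of 7 acyl-CoA synthetases listed by the names ACSL, bgm or Fatp, which charge fatty acids with coenzyme A for storage or breakdown, 6 were measured and 3 are members. CG3394, now Fatp3, had 3264, 3010.3 and 4373 units in controls against 467, 332 and 584 in EcRi on 0.15 M, and 5258, 3020.0 and 2661 against 581, 531 and 441 on 0.5 M. CG4500, now hll, had ratios of 4.29 and 4.51, and CG3961 had 3.14 and 2.29. The other 3 were not called for genotype on either diet: bgm (log2 difference -0.32 and -0.42), Fatp (-0.13 and 0.21) and Acsl (0.15 and 0.35), with limma adjusted p from 0.129 to 0.752. On the high-sugar diet CG3961, Fatp (0.61, adjusted p = 0.00696) and Acsl (0.52, adjusted p = 0.0221) rose in EcRi, and no gene of the family was called in controls.

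**Figure D5:**
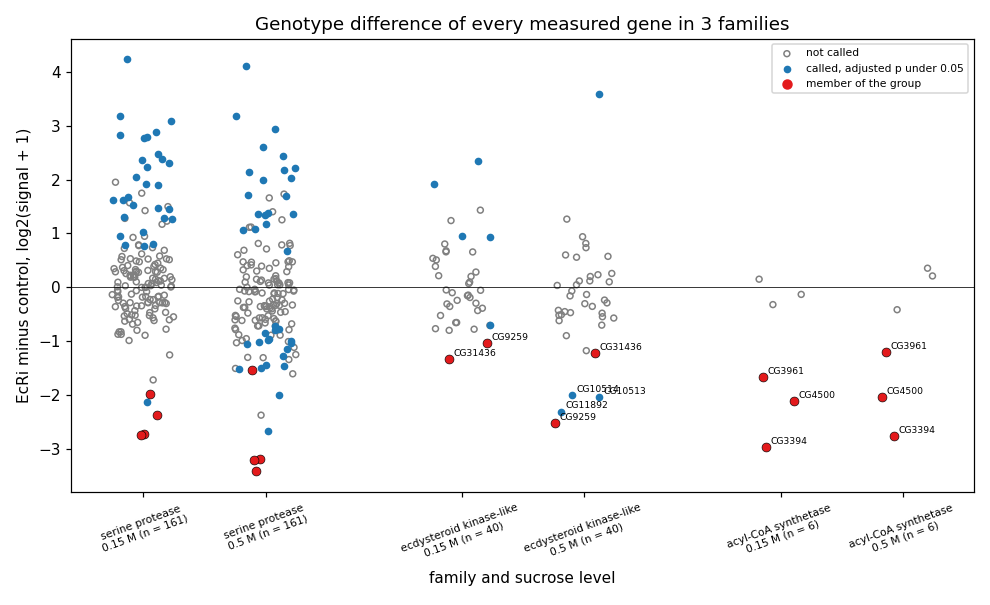
Each point is 1 measured gene of 3 families, with its log2(signal + 1) difference between EcRi and control on each diet on the y axis; filled blue points had a limma adjusted p under 0.05, open points did not, and members are red. Members lie below 0 on both diets because the rule chose them so, and the other genes of the families lie on both sides of 0. The 3 kinase-like genes CG10514, CG11892 and CG10513, which are not members, lie near CG9259 on 0.5 M and are not called on 0.15 M.

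Members also lay near each other. In the reference annotation 14 pairs, made of 21 members, had at most 2 genes between them. The proteases CG30002 and CG1773 are followed directly by CG10459 on 2R, and CG14253, CG31075 and CG31076 stand together on 3R. Other pairs are CG11475 with CG11474, CG9812 with CG30411, CG13575 with CG3376, CG3376 with CG3394, CG8850 with CG17739, CG7227 with CG7224, CG32117 with CG32115 and CG9220 with CG8105. How many pairs would be near each other in another list of this size was not tested. Of 93 members placed in the annotation 36 have an exon that overlaps another gene, among them CG1773 with CG10459 and CG11475 with CG11474 on the same strand and CG14253 with CG31075 on opposite strands, so their values may share reads. CG14253, with a control mean of 318 units beside the very abundant CG31075, is one such case: the ratios were 2.06 and 4.89 for the former and 2.79 and 4.98 for the latter.

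Named genes that meet the members' thresholds also stand near members. The ecdysone-induced transporter gene E23 lies 2 genes from the sugar transporter-like CG33282, santa-maria, a scavenger receptor, 1 gene from CG5958, and the organic cation transporter Orct 2 genes from CG6356. In the first case the genes in between, CG3285 and CG15408, had log2 differences of -0.41 and -0.15 on 0.15 M and -1.25 and -1.53 on 0.5 M. In the second, CG5973 had 0.15 and 0.37. Gs1 near CG4822, tweek near CG42556, CR32194 beside CG34253 and l(1)dd4 near CG11151 are the other such pairs. Exons overlap between CR32194 and CG34253 and between l(1)dd4 and CG11151, so their values may share reads.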

How the data were processed

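Total RNA of larval fat bodies was sequenced on an Illumina HiSeq after rRNA subtraction, per the labels' protocols. For each of 10047 genes and 12 libraries the table holds a normalised signal, as deposited; the sources used here do not say how the authors scaled it. Since these values are not whole numbers, no count test was run. Cufflinks 1.1.0, Bowtie 0.12.7, TopHat 1.3.2 and edgeR are named, with no roles, in the submitters' processing notes. Build, annotation, strand use and any filter are likewise unstated. The lowest gene mean is 1.67.

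Members were found by the stated rule. limma 3.58.1 in R 4.3.3 (trend and robust steps) was fitted to log2(signal + 1) of the 12 libraries with 4 group means, and fold changes are on that scale, which understates those of low genes. P-values were adjusted by Benjamini-Hochberg over all genes with a threshold of 0.05, and the procedure was tested on simulated data. The members and all lists were chosen with earlier results of these data known. Members are named by highest control signal (10), largest mean ratio (10), smallest p in each direction of each diet contrast (up to 6), family and nearness to the threshold. Others are given by values or count, and singled-out genes outside this rule were chosen after their values were seen.

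Families were to be found by protein similarity, which was not run here, so symbols and synonyms of the RefSeq gene table (Release 6 plus ISO1 MT) were used. All 94 members matched it. Neighbours and exon overlaps come from Ensembl annotation 115, whose build may differ from the authors', so no coordinates are given, and transcript lengths come from it too (93 members). Replicate numbers were not used to pair the libraries in the main fit: deviations of same-numbered libraries correlated between -0.196 and 0.165. Whether same-numbered libraries share a culture or batch is not stated. Alternatives were pseudocounts of 0.5 and 10, a minimum mean of 10, upper quartile and quantile scaling, no trend or robust step, 2 groups only, library weights, a replicate block, and each library left out.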

Additional observations from a re-analysis of the deposited data

Results flagged for a closer look

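In 5 members the change from 0.15 M to 0.5 M sucrose differed between the genotypes by limma's interaction test, and they are listed for that alone. On the log2 scale the change in EcRi minus that in controls was 2.50 for CG4269, 1.16 for CG4822 and 1.05 for CG6356, and -1.49 for CG9259 and -1.07 for CG31076. In 3 non-members of the ecdysteroid kinase-like family it was -2.0 for CG11892, -1.80 for CG10513 and -1.65 for CG10514. Of these 8 results, those of CG4269, CG6356 and the 3 non-members were called under every alternative run. Groups of 3 libraries are too small for a test of single outlying values.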

How the results depend on the processing

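The count of members called for diet in controls (4) was 1 with only the 2 groups fitted, 1 without the trend and robust steps, 11 with library weights, and 1 to 4 with each library left out. With library weights that was 11.7% of the members and 9.63% of all genes. The interaction count (5) was 10 with library weights, 2 without the trend and robust steps and 2 to 8 with each library left out. With library weights that was 10.6% of the members and 15.4% of all genes, the reverse order to the main fit. The estimate of the weights came with a warning that its convergence tolerance was not achievable. The count in EcRi (26) ranged from 21 to 30 with each library left out, and from 20 with quantile normalisation to 33 with upper quartile scaling. The share of all genes called in EcRi ran from 13.5% to 29.5% with each library left out. It was 18.6% with quantile normalisation and 25.5% with upper quartile scaling. The ecdysone list's calls on 0.15 M (11) ranged from 7 to 12 and on 0.5 M (14) from 10 to 14 with each library left out. The number of members (94) was 152 at a ratio of 1.5 and 47 at a ratio of 3. For the other moves the cause was not tested; fewer or more members follow from the thresholds themselves. No called value changed sign, but the members' median diet change in controls (0.06) was -0.05 with library weights, -0.07 with quantile normalisation and -0.03 with upper quartile scaling. Of the calls, 0 of 4 in controls, 17 of 26 in EcRi and 2 of 5 interactions were kept under all alternatives.

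The replicate block gave 4 members called in controls, 24 in EcRi and 5 for the interaction. The labels do not say that same-numbered libraries belong together. Under it CG18135 in controls (adjusted p = 0.0606) and CG1773 in EcRi (0.0507) were no longer called. CG1773 was also lost without EcRi 0.15 M replicates 1, 2 and 3 (0.102, 0.0752, 0.119), EcRi 0.5 M replicates 1, 2 and 3 (0.0677, 0.0597, 0.121), control 0.15 M replicate 1 (0.0566) and control 0.5 M replicate 2 (0.0692). CG30002 was lost without EcRi 0.15 M replicates 1 and 3 (0.078, 0.0683) and EcRi 0.5 M replicates 1 and 3 (0.0838, 0.0795). Depth is unknown, and members near 20 units, such as CG30083, are the least precise.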

Other observations

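Several members outside the calls moved far between single libraries. CG8628, now Acbp3, an acyl-CoA binding protein, had 51.0, 32.3 and 19.5 units in controls on 0.15 M and 18.4, 108 and 69.8 on 0.5 M, so that its diet difference of 0.69 had an SE of 0.68. CG34276 had 71.5, 42.2 and 17.5 and then 11.3, 37.9 and 43.6. For both, control 0.5 M replicate 1 was the lowest library of its group, whereas the median member lay 0.37 above its group mean there.

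Some members had genotype ratios that differed by diet by more than a factor of 2 and were not called for the interaction; 3 are named here after their values were seen. CG9812 (24.6 and 8.83) gave 1.28 ± 0.48 (limma adjusted p = 0.148), the glycine decarboxylase CG3999 (6.06 and 2.46) gave 1.37 ± 0.45 (adjusted p = 0.105), and CG13116 (2.24 and 7.80) gave -1.72 ± 0.68 (adjusted p = 0.156).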
